A study of Arabidopsis thaliana with 20 samples.

Results

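The values described here set the 4 arrays numbered replicate 1 against the 16 arrays numbered replicates 2 to 5 in a set of 20 Affymetrix arrays of whole Arabidopsis thaliana seedlings. Each of the 4 line and treatment groups held 5 arrays and gave 1 array to replicate 1, so every difference was taken within a group, as replicate 1 minus the mean of replicates 2 to 5, and averaged over the 4 groups. Replicate 1 was chosen by these same values, since its arrays stood apart from the others across probe sets. The differences in level below are therefore a description with no test, and its 4 arrays share 1 replicate number and are no independent repeats of it. The labels give a replicate number and do not say whether a number marks a shared sowing, day, treatment or extraction.

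The series was made to find direct targets of VND7, a NAC transcription factor that switches on the formation of xylem vessel cells. One line carried 35S:VND7-VP16-GR and the other the empty vector, 35S:VP16-GR:NOS; the labels call both homozygous with a single insertion. The constitutive viral 35S promoter drives both transgenes. VP16 is a viral activation domain, and GR is the glucocorticoid receptor domain that lets a fusion protein enter the nucleus once dexamethasone (DEX) is bound. All seedlings were 10 days old, were grown on MS agar in 16 h of light at 23 °C, and were soaked in cycloheximide (CHX), which blocks protein synthesis, for 2 h and then for 4 h in CHX with or without DEX. The groups were empty vector with CHX, empty vector with DEX and CHX, VND7 fusion with CHX, and VND7 fusion with DEX and CHX. The labels give 10 µM for both agents in one field and 10 mM in others. Because every group was soaked and had CHX throughout, none of the values describes untreated seedlings.

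Whole seedlings pool many tissues, so a transcript level reflects both how many cells of a type are present and how much RNA each holds, and these cannot be told apart in bulk RNA. Some of the gene families below are known for their tissue. Chloroplasts keep a small genome of their own, which encodes core subunits of the photosystems, the ATP synthase, the cytochrome b6f complex, the NDH complex, Rubisco and part of the plastid's ribosomes and RNA polymerase, while most plastid proteins come from the nucleus. Plants move sugars out of cells and into vacuoles through SWEET carriers, and nitrate, peptides, hormones and glucosinolates through carriers of the NPF family.

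The 20 arrays were of like brightness. The median MAS5 signal was 173 to 185 on the replicate 1 arrays, 160 to 174 on those of replicates 2 and 3, and 177 to 186 on those of replicates 4 and 5, and signals under 20 made up 15.6 to 18.2%, 15.7 to 19.6% and 15.9 to 18.0% of probe sets. After group means were subtracted, the first principal component of the 11367 brighter probe sets took 48.9% of the variance and separated replicates 2 and 3 (scores 25.3 to 31.9) from replicates 4 and 5 (-29.6 to -23.0), with replicate 1 between them at -7.29 to -2.82. The second component took 26.5% and placed the 4 replicate 1 arrays at 33.8 to 41.7, with the 16 others at -14.2 to -1.12. Since replicate 1 was chosen for standing apart, a component that separates it is a description. The green-tissue transcript RCA, which encodes Rubisco activase, read 21639 to 26164 in replicate 1 and 14967 to 21955 (median 19631) in the others, and the root glucosidase PYK10 was bright on all 20 arrays too, so markers of shoot and root were present under both labels.

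**Figure D1:**
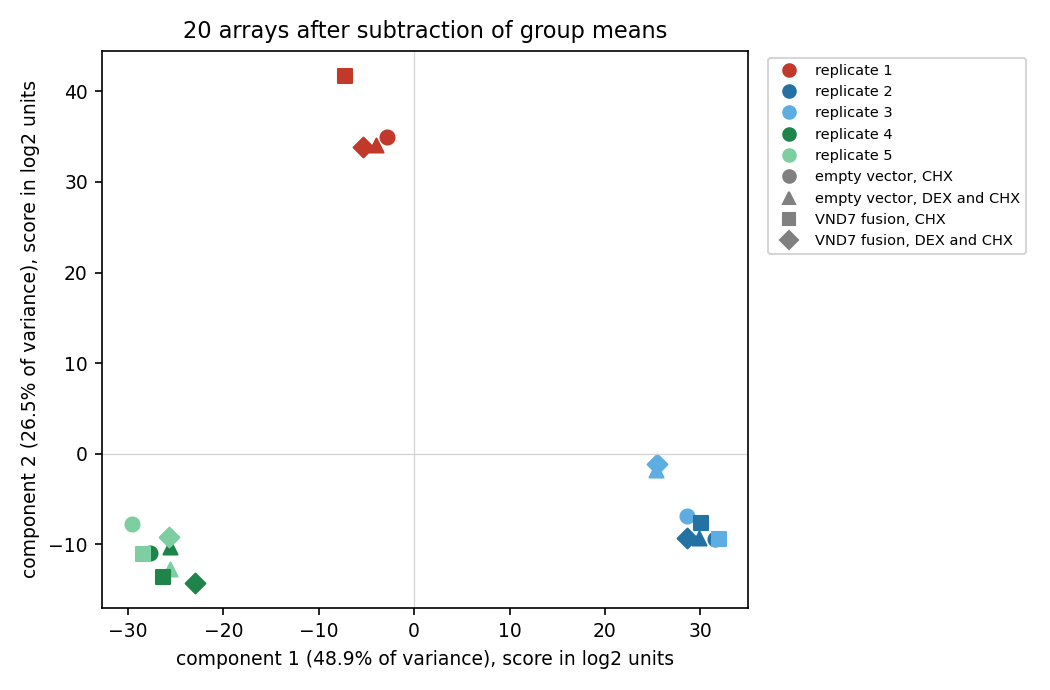
Scores of the 20 arrays on the first 2 principal components, in log2 units, after subtraction of each group's mean; colour gives the replicate number and shape the line and treatment group. The 4 replicate 1 arrays lie at 33.8 to 41.7 on component 2, and the 16 others lie at -14.2 to -1.12.

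A probe set was counted as higher (or lower) in replicate 1 when its replicate 1 array was the highest (or the lowest) of the 5 in every group and the mean difference reached 2-fold. By this rule 283 of 22746 probe sets were higher (1.24%) and 225 were lower (0.989%). Since the arrays were chosen for such differences, nothing is read from these shares. Without the 2-fold minimum 1233 were highest (5.42%) and 1473 lowest (6.48%) in all 4 groups. The median difference of all probe sets was -0.03 on the log2 scale, and 92.2% differed by less than 2-fold. Within the counted sets the differences were of moderate size: the median was 1.27 for the higher and -1.39 for the lower, and 27 and 28 exceeded 4-fold. The signals of replicate 1 did not overlap those of any of the 16 others for 207 of the 283 and 144 of the 225. The rule favours such gaps, and their share over all probe sets was not counted. Nothing is therefore read from these counts, or from the lack of overlap given for genes below. Just inside the 2-fold limit lay AT2G07777, at 1.0003, and just outside it an unnamed probe set, at 0.9985; on the lower side 2 unnamed probe sets lay at -1.0021 and -0.9945.

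The pattern was shared by all 4 groups. Across the 11367 brighter probe sets the replicate 1 differences of any 2 groups correlated with r of 0.68 to 0.84 over the 6 pairs of groups, a description across genes of arrays that share a replicate number. As medians, which the rule on all 5 arrays of a group bears on, the higher sets differed by 1.30 against replicates 2 and 3 and 1.31 against replicates 4 and 5, and the lower sets by -1.42 and -1.37. Single genes varied more: of 87 named by rule, 33 moved beyond their spread over groups against each pair. Of the higher sets 57, and of the lower sets 22, also differed by more than 2-fold between replicates 2 and 3 and replicates 4 and 5. By the analogous rule replicates 2 and 3 were higher than replicates 4 and 5 for 624 probe sets and lower for 333, so replicate 1 was not the one number that differed. One probe set was kept for each of the 13286 named genes below; of these 121 were higher (0.911%) and 117 lower (0.881%), and 574 were highest (4.32%) and 805 lowest (6.06%) in all 4 groups at any fold.

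Transcripts of the plastid genome were among the higher ones. Of 69 measured plastid-encoded genes 6 were higher and 0 lower, 16 were highest and 1 lowest in all 4 groups at any fold, and 48 had a positive difference; the median was 0.27 on the log2 scale, against -0.04 over all named genes. The gene rbcL, which encodes the large subunit of Rubisco, had signals of 1741, 1789, 1934 and 1603 in replicate 1 (here and below in the order empty vector with CHX, empty vector with DEX and CHX, VND7 fusion with CHX, VND7 fusion with DEX and CHX) against 304 to 701 (median 532) on the 16 other arrays. Every replicate 1 array was thus above every other array. The mean log2 difference was 1.77 ± 0.31 (SD over the 4 groups, n = 4, as for every difference below), which is 3.4-fold.

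Within the plastid genome the medians of the subunit groups, which were drawn up after values had been seen, differed in size and sign. The 6 ATP synthase genes all had positive differences, with a median of 0.55, and the median was 0.52 for 4 RNA polymerase genes, 0.44 for 6 cytochrome b6f genes, 0.40 for 20 photosystem genes and 0.33 for 10 NDH genes. The 15 ribosomal protein genes had a median of -0.23, with 10 negative and 5 positive, and of 0.13 against replicates 2 and 3 alone. The counted ATP synthase gene was atpH, a subunit of the membrane ring, with replicate 1 signals of 6487, 7937, 7406 and 4882 against 2128 to 5614 (median 3002); its arrays overlapped, since the VND7 fusion array with DEX was below the highest of the others. The counted genes ndhJ, ndhK and ndhF encode parts of the NDH complex, which carries electrons around photosystem I. For ndhJ the replicate 1 signals were 1393, 1836, 1840.4 and 1281 against 545 to 961 (median 692), without overlap, a difference of 1.12 ± 0.36. The difference was 1.01 ± 0.32 for ndhK, also without overlap. ndhF, chosen after its values were seen, was dim, at 27.9 to 59.8 against 1.5 to 23.1 (median 13.3).

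The psbA transcript, for the D1 protein of photosystem II, was chosen after its values were seen. Its replicate 1 signals were 16219, 18343, 18491 and 14238 against 2353 to 14048 (median 4194), and its difference was 1.98 ± 0.42. The signals did not overlap, yet psbA was not counted: 1 replicate 2 array, of the VND7 fusion with DEX and CHX, came close to the replicate 1 array of its group and passed it after division by each array's median. It also differed between the other replicates, with medians of 5516 in replicates 2 and 3 and 2796 in replicates 4 and 5. Among ribosomal protein genes rpl20 and rps4 were highest in all 4 groups, at 0.95 ± 0.48 and 0.71 ± 0.42, while rps18 was lowest, at -0.55 ± 0.29 with overlapping signals (1705 to 2689 against 2591 to 3849.8 (median 3084)). Plastid transcripts are long, often shared between neighbouring genes, and mostly lack poly(A) tails, so their signals on these arrays need not follow their amount.

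**Figure D2:**
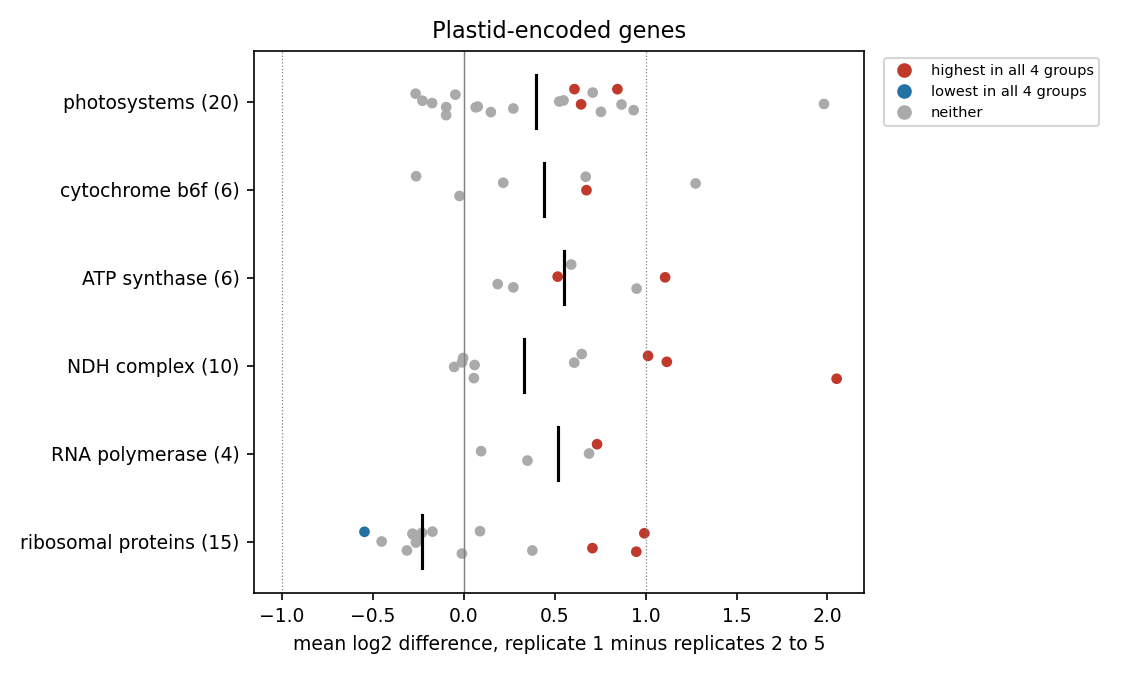
Mean log2 difference of replicate 1 from replicates 2 to 5 for plastid-encoded genes by complex; each point is a gene, black bars are medians, dotted lines mark 2-fold, and the number of genes is in brackets. Medians run from 0.33 to 0.55 in the first 5 rows, and the ribosomal protein genes have a median of -0.23.

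No measured nuclear gene of the photosynthesis lists was counted, and few were measured under a name. The light-harvesting genes LHCB4.1, LHCB4.2 and LHCB4.3 differed by 0.11, 0.40 and -0.41. RCA was highest in all 4 groups but by 0.28 ± 0.06 only, and PRK and SBPASE, enzymes of the Calvin cycle, differed by -0.04 and -0.17. TPI, a triose phosphate isomerase, was lowest in all 4 groups by a small step, at -0.20 ± 0.02. It entered the carbon fixation list by its symbol, and whether it encodes a chloroplast enzyme was not checked. The 8 nuclear genes for the plastid NDH complex had differences on the other side of 0 from the median of its plastid-encoded subunits: all 8 were negative, with a median of -0.48, and 2 were lowest in all 4 groups. These were the subunit genes NdhL, at 492 to 849 against 640.5 to 1424 (median 1047), and NdhN, at 412 to 767 against 556 to 1249 (median 848). Both overlapped the other arrays, and none of the 8 reached the 2-fold rule.

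Among nuclear families, carriers of the NPF and SWEET families held several counted genes each. Of 11 measured NPF genes 4 were higher and 0 lower, 5 were highest in all 4 groups, and the median difference was 1.03. GTR1, a glucosinolate importer that loads these defence compounds into the phloem, had replicate 1 signals of 3016, 2675, 2449 and 2014 against 548 to 1253 (median 879), a difference of 1.48 ± 0.30. Its partner GTR2 had 1338, 1174, 1166 and 1250.0 against 499.8 to 668 (median 601), a difference of 1.03 ± 0.05. For both, the replicate 1 arrays lay wholly above the others, and GTR2 was nearly level within each set of arrays. AT3G21670 was also counted, at 459 to 578 against 123 to 406 (median 228) (1.22 ± 0.25), as was the dim AT1G33440, at 1.23. AT1G27040 had the family's largest difference, 1.54 ± 1.01, but was dim (22.0 against 7.33) and was not highest in every group. The 11 genes had a median signal of 196 in replicate 1 and 82.0 in the others, the latter below the array medians.

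Of 16 SWEET genes 3 were higher and 0 lower, 5 were highest and 1 lowest in all 4 groups, and the median was 0.65. Most members were dim, with a median signal of 64.0 in replicate 1 and 38.2 in the others. SWEET17, a fructose carrier of the vacuole membrane, had replicate 1 signals of 941, 1282, 1197 and 1329.9 against 396 to 611 (median 470.2), a difference of 1.29 ± 0.17 and no overlap. The vacuolar carriers below were highest in all 4 groups just short of 2-fold: SWEET16 at 0.99 ± 0.34 and SWEET2 at 0.92 ± 0.19, both without overlap. SAG29, also called SWEET15 and known from senescing leaves, was chosen after its values were seen; it was dim, at 49.1 to 145 against 2.2 to 44.4 (median 18.1), and counted at 2.72 ± 0.71. SWEET10 was counted at 1.08, and SWEET1 was the member lowest in all 4 groups, at -0.89.

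**Figure D3:**
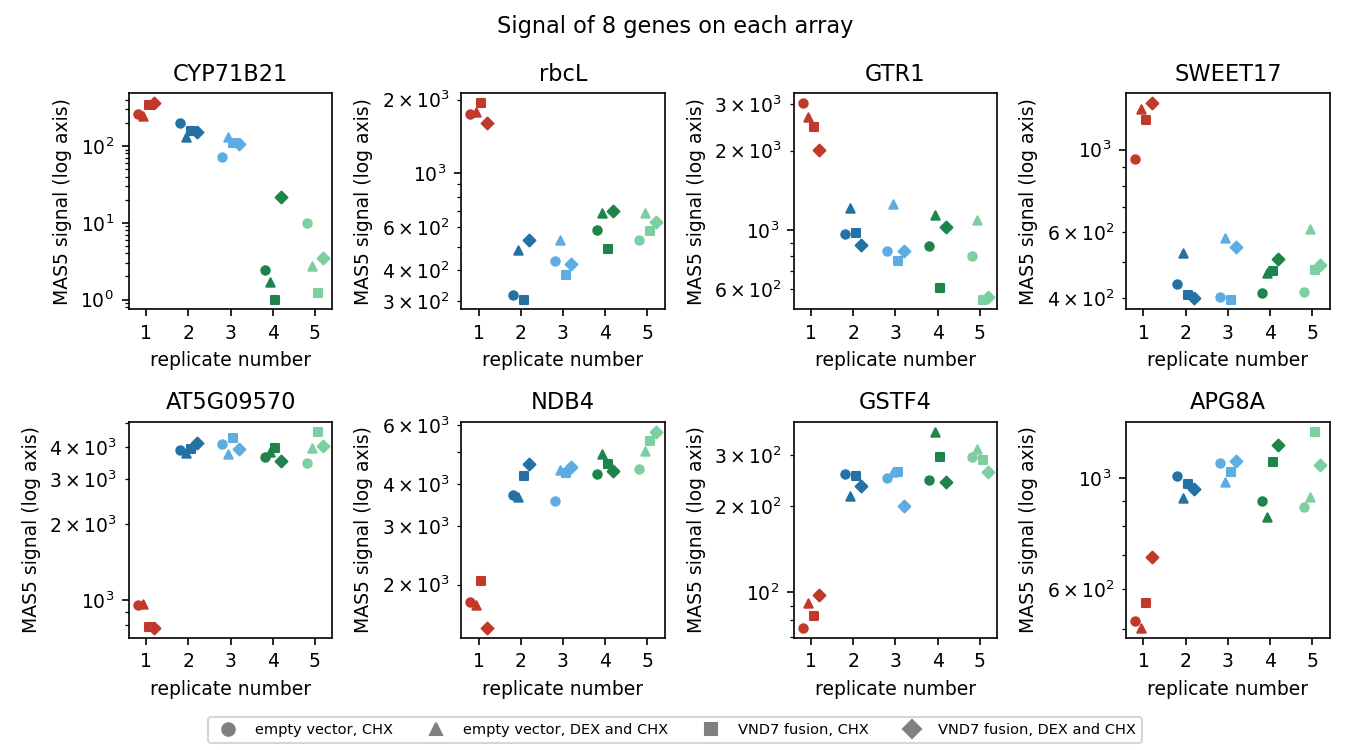
MAS5 signal (log axis) of 8 genes on each of the 20 arrays by replicate number; shape gives the line and treatment group. In the top row the replicate 1 arrays lie above all others, in the bottom row below all others, and CYP71B21 also separates replicates 2 and 3 (72.2 to 199) from replicates 4 and 5 (1.0 to 21.7).

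Few genes of the cell-wall lists were counted. IRX15-L, needed for xylan of secondary walls, was higher, with 747, 761, 965 and 577 against 82.7 to 487 (median 283), a difference of 1.61 ± 0.32; it was 0.83 against replicates 2 and 3 and 2.39 against replicates 4 and 5. Of 15 GH9 cellulases 1 was higher, GH9B8 at 209 to 315 against 65.8 to 143 (median 110.0) (1.24 ± 0.21), with a family median of 0.60. Most of this family was dim, with a median signal of 44.8 in replicate 1 and 33.7 in the others. Of 23 trichome birefringence-like genes, which acetylate wall polysaccharides, 1 was higher, AT2G31110 (1.11 ± 0.31), and the median was 0.19. Of 29 expansin and XTH genes, which loosen walls, none was counted, 22 were positive, and the median was 0.25.

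PYK10, the main glucosidase of root endoplasmic reticulum bodies, was higher, with 8944, 7905, 6956 and 7641 against 1703 to 5385 (median 3556), a difference of 1.22 ± 0.21 without overlap. It stood alone in the root cell list. The 4 measured root hair genes, EXPA7, EXPA18, GH9C1 and XTH26, were all positive with a median of 0.63, but none was highest in every group. Whether the share of root tissue differed was not tested. Of the epidermal and guard cell list, SPCH, which starts the stomatal lineage, was lower, at 28.6 to 76.9 against 66.5 to 189.6 (median 142) (-1.38 ± 0.58), with overlap. MUTE, which acts after it, was near background at 2.8 to 5.4 against 3.4 to 42.3 (median 12.2), and FMA, the last of the series, differed by -0.11 ± 0.25. SPCH, MUTE and FMA were chosen after their values were seen. The list's 5 genes had a median of -0.51, with 4 negative and 1 positive, at 0.29. The 2 vascular and 2 meristem markers measured differed by -0.04 to 0.39, and none was counted.

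The largest higher difference of a gene matched to its probe set was in CYP71B21, a cytochrome P450, with replicate 1 signals of 262, 247, 341 and 360.5 against 1.00 to 199 (median 47.0). Its size depended on the comparison arrays: it was 1.13 against replicates 2 and 3 and 6.58 against replicates 4 and 5, where the transcript was near background, and 3.85 ± 0.68 overall. It was the 1 counted gene among 28 P450 genes, whose median was 0.06. Among genes whose replicate 1 mean was at or above the array median, the next after it, beside rbcL above and IRX15-L, had no symbol in the annotation. They were AT5G37690 (2.36 ± 0.32), AT1G54020 (1.99 ± 0.55), AT4G27654 (1.95 ± 0.48), AT5G11420 (1.86 ± 0.52), AT1G33760 (1.83 ± 0.33), AT5G03120 (1.69 ± 0.18), AT5G40450 (1.61 ± 0.35), AT2G42760 (1.55 ± 0.17), AT3G50560 (1.54 ± 0.19), AT3G06150 (1.53 ± 0.22) and AT1G19450 (1.53 ± 0.16). In each of the 11 the replicate 1 arrays lay above all 16 others. Dimmer genes could exceed them, as SAG29 did. AT1G19450 had the smallest SD of the 11, at 1694, 1923, 1968 and 1600.5 against 442 to 679 (median 627).

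Members of further families were counted as higher, none of them with a list median past 2-fold. The subtilase protease SBT4.12 had 414, 309, 468 and 426 against 108 to 171 (median 142), a difference of 1.48 ± 0.31, while the 9 subtilases had a median of -0.24, with 4 positive and 5 negative. Among 9 plant U-box ubiquitin ligases PUB25 was higher (1.102 ± 0.24), the related PUB26 and PUB23 were highest in all 4 groups at 0.91 ± 0.17 and 0.45 ± 0.10, and 8 of 9 were positive. Of 22 bZIP transcription factor genes 2 were higher and 0 lower, with a median of 0.14: BZIP61 (1.17 ± 0.20) and AT2G12900, which was dim and is named after its values were seen (2.42). Of 22 beta-glucosidases 2 were higher, PYK10 and BGLU40 (1.42 ± 0.31), and 1 was lower, with a median of -0.06. Below the 2-fold rule, WRKY53, a regulator of leaf senescence, was highest in all 4 groups with 2617, 2368, 2654 and 1948 against 793 to 1702 (median 1167), and OPCL1, of jasmonate synthesis, with 8582, 8047, 9493 and 7071 against 3229 to 6141 (median 4642). Neither overlapped the other arrays. The 13 jasmonate and wounding genes as a list had a median of -0.12, which was 0.78 against replicates 4 and 5 alone, and the 7 WRKY genes one of 0.11.

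Among the lower transcripts AT5G09570, which has no symbol in the annotation, stood apart on every array. Its replicate 1 signals were 955, 965, 787 and 779 against 3468 to 4597 (median 3924), a difference of -2.22 ± 0.21, or 4.66-fold lower. NDB4, an alternative NADH dehydrogenase of the inner mitochondrial membrane, had 1777, 1736, 2053 and 1483 against 3563 to 5742 (median 4423), a difference of -1.39 ± 0.25. For both genes replicates 2 to 5 lay close together and replicate 1 lay well below. All 5 alternative NADH dehydrogenases had negative differences, with a median of -0.41, and NDB4 was the 1 that was counted; NDB2 differed by -0.63.

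Glutathione transferases, which conjugate glutathione to electrophiles, included 1 lower gene of 13, with 3 lowest in all 4 groups and a median of -0.17 (0.06 against replicates 4 and 5 alone). GSTF4 had 75.2, 91.7, 82.8 and 98.0 against 199.7 to 362 (median 259.6), a difference of -1.64 ± 0.25. GSTU25 had 6764, 7232, 7653 and 8092 against 10673 to 13727 (median 12465), a difference of -0.76 ± 0.13 without overlap. GSTU22 was lowest in all groups but overlapped the others, at 3938 to 9132 against 5699 to 12163 (median 8088). The peroxidase genes SAPX and PRXIIF, for removal of peroxides in organelles, were lowest too, at -0.55 ± 0.23 and -0.43 ± 0.06, and the 6 genes of the oxidative stress list had a median of -0.36.

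No autophagy or histone H2B gene was counted as lower, but every measured one had a negative difference. ATG8 proteins are ubiquitin-like and become attached to the membrane of the growing autophagosome. All 11 autophagy genes measured were negative, with a median of -0.52, 6 were lowest in all 4 groups, and none reached 2-fold. APG8A had 516, 501, 563 and 696 against 836 to 1237 (median 995), and APG8H had 969.8, 943, 802 and 952 against 1165 to 1826 (median 1449), both without overlap, at -0.86 ± 0.15 and -0.74 ± 0.17. ATG8B differed by -0.79 ± 0.35, from -1.30 to -0.57 over the 4 groups. All 4 H2B genes were lowest in all 4 groups, with a median of -0.64: HTB1 at -0.70 ± 0.11, HTB2 at -0.64 ± 0.12, HTB4 at -0.64 ± 0.14 and HTB11 at -0.60 ± 0.12, the last chosen after its values were seen. For HTB1 the replicate 1 signals were 1108, 985, 946 and 972 against 1361 to 2008 (median 1586). The fixed list of cell cycle and histone genes, which took in H2B genes, was mixed in sign. Of its 12 measured genes 9 were negative and 3 positive, with a median of -0.46, and 4 were lowest in all 4 groups. H2B copies are closely alike in sequence, so their probe sets may read one another's transcripts and are not 4 independent values. The autophagy and H2B lists were added after values had been seen. So were the P450, UDP-glycosyltransferase, NPF, SWEET, nuclear NDH, GH9, trichome birefringence-like, U-box, subtilase, bZIP, glucosidase and NADH dehydrogenase lists.

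**Figure D4:**
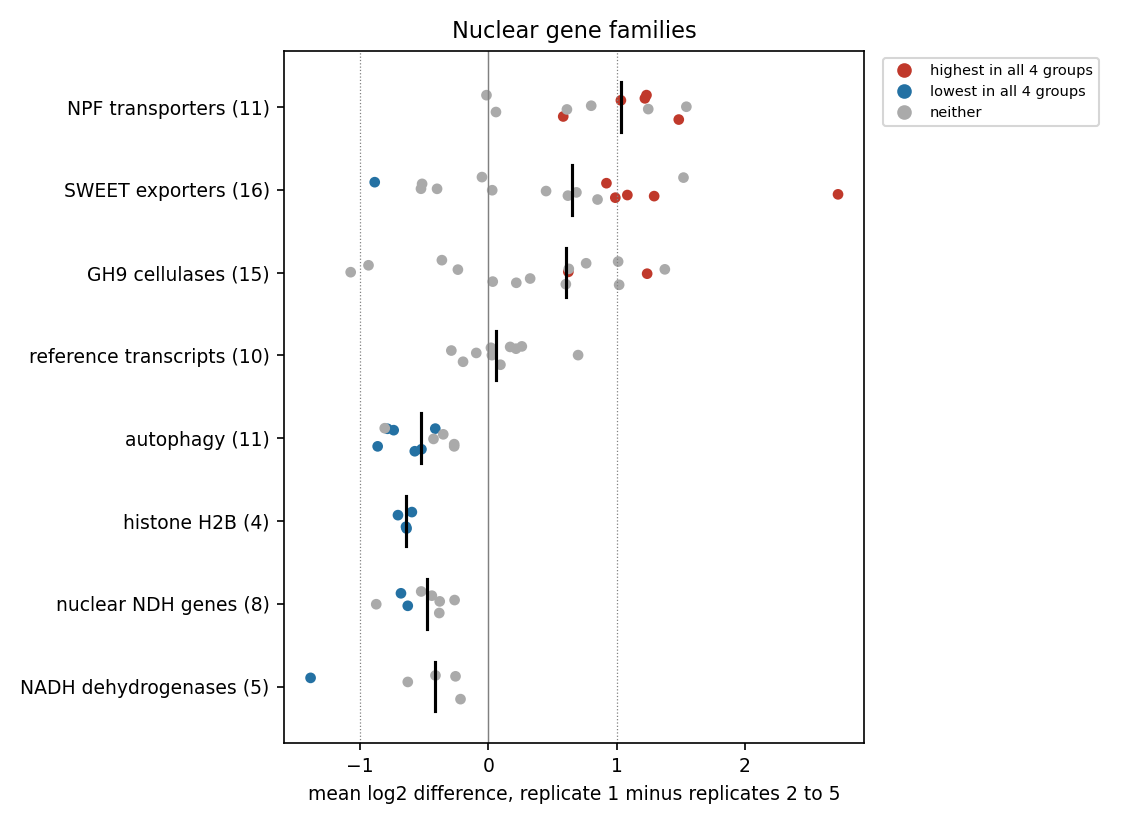
Mean log2 difference of replicate 1 from replicates 2 to 5 for genes of 8 nuclear lists; each point is a gene, black bars are medians, dotted lines mark 2-fold, and the number of genes is in brackets. NPF carriers have a median of 1.03, reference transcripts of 0.06 and histone H2B genes of -0.64.

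Other lower genes were spread over many families. UGT84B1, which attaches glucose to the auxin indole-3-acetic acid, had 209.5, 132, 114 and 54.4 against 208 to 1072 (median 469), a difference of -2.14 ± 0.74 with a slight overlap. It and UGT73D1 (-1.09 ± 0.47) were the 2 lower genes among 51 UDP-glycosyltransferases, of which 0 were higher. BGLU44, a glucosidase, was lower at -1.25 ± 0.32. AT2G43570, whose symbol CHI stands for chitinase, was lower at -1.004 ± 0.03; it entered the flavonoid list by that symbol and is no flavonoid gene. Likewise PDF1B, which entered the jasmonate list by its symbol, is a peptide deformylase; it was lowest in all 4 groups at -0.84 ± 0.34.

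Among genes whose mean in replicates 2 to 5 was at or above the array median, the other leading lower genes without a symbol were AT4G11730 (-2.30 ± 0.57), AT1G13200 (-2.21 ± 0.15), AT3G16670 (-2.16 ± 0.65), AT3G28600 (-2.15 ± 0.28), AT2G23830 (-2.04 ± 0.35), AT5G64790 (-1.90 ± 0.59), AT3G62960 (-1.89 ± 0.26), AT3G28610 (-1.89 ± 0.42), AT5G55450 (-1.83 ± 0.35), AT4G17670 (-1.81 ± 0.34), AT5G50120 (-1.67 ± 0.37) and AT4G22640 (-1.65 ± 0.57). All but AT4G22640 were without overlap. AT3G28600 and AT3G28610 are neighbours on chromosome 3 in the annotation. AT4G17670 shows the even kind, at 970.1, 672, 738 and 595 against 1969.6 to 3138 (median 2399.8). AT5G64790 shows the uneven kind: replicates 2 and 3 had a median of 3122, replicates 4 and 5 of 1178, and replicate 1 lay below both at 286 to 768.

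Lists that differ between the other replicates could not be read as a difference of replicate 1 alone. The 6 cold-response genes had a median of -0.88, with none counted. LTI30, a dehydrin, was lowest in all 4 groups without overlap, at 399 to 614 against 654 to 1413 (median 925). COR27, in contrast, was at 271 to 483 in replicate 1, 186 to 292 in replicates 2 and 3 and 1890.4 to 2435 in replicates 4 and 5, and COR15B at 150.5 to 182, 152 to 228 and 363 to 869. COR47 had the opposite sign against the pairs, 1.09 and -0.37. COR27, COR15B and COR47 were chosen after their values were seen.

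Several lists held no counted gene. Of the 10 reference transcripts (tubulins, ubiquitin conjugases and others) none was highest or lowest in all 4 groups, with a median of 0.06. The medians below lie near 0 over members that went both ways. The 5 heat-shock genes had a median of -0.02 (-0.41 to 0.46), and the 7 class III peroxidases one of -0.19 (-0.77 to 0.25). The 8 touch and calcium genes had a median of 0.12 (-0.74 to 2.00), where the highest, AT1G76640, differed by -0.04 against replicates 2 and 3 and by 4.03 against replicates 4 and 5. The 18 auxin-response genes had a median of 0.02, from -1.86 for LBD29 to 0.74 for GH3.17. The 8 seed protein genes, most of them dim, had one of 0.00 (-1.24 to 1.52). AT1G76640, LBD29 and GH3.17 are named after their values were seen. The clock could not be described, since 1 evening and 1 output gene were measured under a name. Aquaporins, arabinogalactan proteins and mitochondrion-encoded genes had no named member.

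Whether replicate 1 also responded differently to DEX is a separate question, which the choice of arrays did not use. It was tested with limma over all 22746 probe sets, with Benjamini-Hochberg adjustment and all 20 arrays, as the DEX response in replicate 1 minus that in replicates 2 to 5. Replicate 1 gives 1 array for each line and treatment, so its response is 1 array minus another, and the spread behind each SE comes from replicates 2 to 5 alone. In the VND7 fusion line 4 probe sets were higher (0.0176%) and 3 lower (0.0132%), and in the empty-vector line 1 was higher (0.0044%) and 4 lower (0.0176%); with the replicate number as a block the counts were 2 (0.00879%) and 3 (0.0132%), and 6 (0.0264%) and 4 (0.0176%). The line difference over both treatments gave 0 higher and 0 lower in limma with or without the block, where 259 and 465 probe sets (659 and 733 with the block) had an unadjusted p under 0.05.

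The 12 calls without the block were all of dim probe sets. In the VND7 fusion line AT2G42960 read 2.4 with CHX and 122 with DEX and CHX in replicate 1, against 31.1 to 60.2 and 55.1 to 126 in the others, a limma difference of 4.79 ± 0.73 (SE, adjusted p = 0.0495). AT2G47780 read 63.9 and 2.5, against 5.1 to 26.5 and 35.9 to 55.2 (-6.73 ± 1.05, limma adjusted p = 0.0495). In the empty-vector line AT5G57830 read 2.00 and 51.1, against 38.7 to 80.9 and 49.4 to 78.8 (4.67 ± 0.65, limma adjusted p = 0.0218). In each of the 12 calls 1 replicate 1 array had a signal of 1.3 to 6.3; in 5, AT2G47780 among them, the other replicate 1 array also lay outside the range of its group. No signal of a called probe set in its line passed 126. With a pseudocount at the 30th percentile of each array, or without the dimmest 40% of probe sets, limma called 0 in either line without the block.

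The block added 6 calls, of which 3, all rises in the empty-vector line on probe sets unnamed here, had a mean above the array median. The brightest read 740.4 with CHX and 1797 with DEX and CHX in replicate 1, against 732 to 1393 and 459 to 1366 in the others. The difference was 1.69, with an SE of 0.25 and a limma adjusted p of 0.0173 with the block, and 0.80 and 1.00 without it. With the block, limma called 3 rises in the empty-vector line without the dimmest 40% and 2 with the pseudocount, and 0 and 1 in the VND7 fusion line; no falls were called in these fits.

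The DEX-raised transcripts themselves were present in replicate 1. In replicates 2 to 5 alone limma called 70 probe sets raised by DEX in the VND7 fusion line (0.308%). In the empty-vector line it called 68 (0.299%). It called 0 lowered in either line, and replicate 1 had no part in the choice. This fit had no replicate block, so differences between replicates 2 to 5 are part of its spread. Calls with the block were not made here, and nothing is read from the 0 lowered. In the VND7 fusion line the median log2 response of the 70 was 1.68 in replicates 2 to 5 and 2.27 in replicate 1, with 70 of 70 positive, 66 at 2-fold or more, and 42 larger in replicate 1 than in any other replicate. The medians of replicates 2, 3, 4 and 5 were 1.85, 1.92, 1.65 and 1.43. In the empty-vector line the median of the 68 was 1.68 in replicates 2 to 5 and 1.29 in replicate 1, with 67 of 68 positive, 47 at 2-fold or more, and 32 smaller in replicate 1 than in any other. Those of the single replicates were 1.33, 1.61, 1.96 and 1.78. The probe sets were chosen on replicates 2 to 5, and the part of that choice in these medians was not tested. Over all probe sets the median replicate 1 response was -0.04 in the VND7 fusion line and 0.03 in the empty-vector line. How many of all probe sets were largest or smallest in replicate 1 was not counted. Within a line every replicate 1 response comes from the same pair of arrays, so the probe sets are no independent repeats. None of the 70 or 68 passed the limma test of the difference itself (lowest adjusted p = 0.802 and 0.854; 0.257 and 0.282 with the block).

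The members named here were chosen after their values were seen, and most lie on the more common side of their line. In replicate 1, 10 of the 70 responses were smaller and 17 of the 68 larger than the mean of replicates 2 to 5. AT1G29240, on the less common side in the VND7 fusion line, responded by 0.04 in replicate 1 and 0.65 to 1.27 in the others. TBL34, a wall polysaccharide acetyltransferase, had the lowest p of the difference among the 70, which did not pass, with a response of 3.02 in replicate 1 and 0.89 to 2.03 in the others, on the log2 scale in the VND7 fusion line. AT1G24600 had the largest difference, with a response of 4.67 in replicate 1 and 2.22 to 2.75 in the others. In the empty-vector line LBD16, a regulator of lateral root initiation, responded by 1.43 in replicate 1 and 1.44 to 1.92 in the others, and GH3.17, which conjugates auxin to amino acids, by 1.41 in replicate 1 and 1.62 to 2.62 in the others. The kinase gene WAG2 was the 1 that did not go up there, at -0.47 in replicate 1 and 0.74 to 1.61 in the others.

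**Figure D5:**
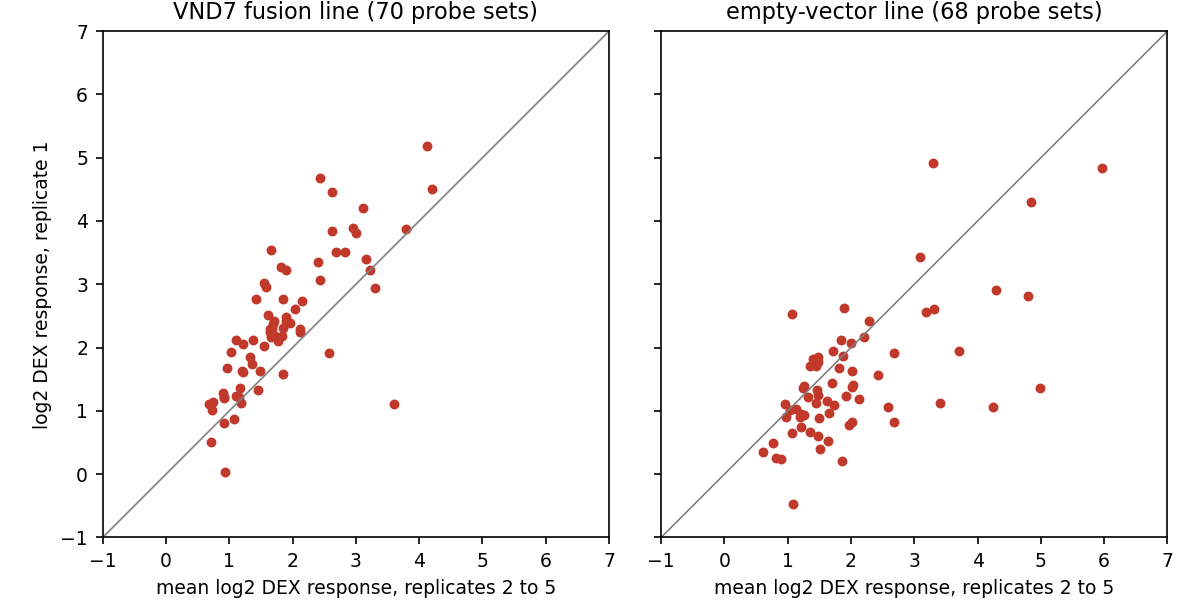
Log2 DEX response in replicate 1 against the mean in replicates 2 to 5 for probe sets called raised in replicates 2 to 5; each point is a probe set and the line marks equal responses. Most of the 70 points of the VND7 fusion line lie above the line (60) and most of the 68 of the empty-vector line below it (51). The points of each panel share the same replicate 1 arrays and are no independent repeats.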

How the data were processed

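RNA from 20 seedling samples was read on 20 arrays, 1 each. Per the submitters' processing notes the authors used MAS5; the values deposited are natural log values, and 100% of 13796 to 14327 values checked per array were whole multiples of a MAS5 signal step of 0.1 (within 0.02 of a step) once each was taken as the natural log of a signal divided by its array's middle value. Division by the natural log of 2 gave the log2 values used here. Of 22746 probe sets 13436 matched 1 gene, 503 had several, 77 had 1 that was not matched, and 8730 are unnamed here; the brightest probe set stands for a gene. The annotation is RefSeq's, TAIR10.1. Precision is limited by the number of arrays.

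Gene lists, members and the choice of replicate 1 were made with earlier results of these data known. Named genes were the 14 largest in each direction with 1 gene and a mean at or above the array median on the higher side, up to 3 ordered genes of each list, and the 4 largest interaction calls each way; others are marked. Lists of 46 kinds were used, of which 29 had 3 or more measured genes, with 20 added later.

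Same-numbered arrays deviated together (30 pairs, r of 0.56 to 0.84), which met the rule for pairing, so interactions are given with and without the replicate block. The DEX responses within replicates 2 to 5 were fitted without it. Arrays of different groups numbered 2 and 3, or 4 and 5, deviated together nearly as closely (r of 0.51 to 0.78). The r of same-numbered arrays thus does not by itself show pairing by number. Since labels do not say that samples are separate cultures, p-values measure the spread between these arrays, which may be technical. Tests used limma 3.58.1 in R 4.3.3 (lmFit, eBayes with a variance trend), and Python 3.11.15 did the rest. The interaction test was tried first on simulated data. The changes planted there were all in probe sets with a mean at or above the array median. That trial therefore does not cover the calls on dim probe sets. Alternatives were a pseudocount, quantile normalization, signals not divided by the median, other comparison arrays or lines, fold minimums, a filter on dim probe sets and arrays left out. The motif search that was planned was not run, since promoter sequence was not used here.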

Additional observations from a re-analysis of the deposited data

Results flagged for a closer look

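Of 91 sets of values examined (4 replicate 1 differences of each of the genes named by the rule, and 5 array medians in each group), 3 held a value far from the others by Dixon's ratio, and chance gives about 1 in 20 such sets. In AT2G42760 the replicate 1 array of the VND7 fusion with CHX differed by 1.81 on the log2 scale, against 1.44 to 1.49 in the other groups. In ATG8B that of the empty vector with CHX differed by -1.30, against -0.68 to -0.57. In BZIP61 that of the empty vector with DEX and CHX differed by 0.88, against 1.24 to 1.31. All 3 kept the direction of their other groups, which the rule that named them required.

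The DEX response of replicate 1 differed from that of replicates 2 to 5 by limma's interaction test for 8 named genes, where the response in replicate 1 is 1 array minus another and the SE comes from replicates 2 to 5 alone. In the empty-vector line the differences were -4.20 for AT2G48060 and -4.11 for AT4G21300 (adjusted p = 0.0236 for both by limma) and 4.67 for AT5G57830 (limma adjusted p = 0.0218). In the VND7 fusion line they were -6.73 for AT2G47780, -3.89 for AT5G49170, 3.45 for AT5G54050, 4.68 for AT3G60700 and 4.79 for AT2G42960, each at a limma adjusted p of 0.0495. With the replicate block AT5G54050 and AT3G60700 no longer passed (limma adjusted p = 0.113 and 0.0884). Without the block none passed with a pseudocount or without the dimmest 40% of probe sets, and each had 1 replicate 1 array with a signal of 1.3 to 6.3.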

How the results depend on the processing

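The counts of higher and lower probe sets were 283 and 225, and became 309 and 220 with quantile normalization, 337 and 205 on signals not divided by the median (an alternative chosen after seeing the data; 282 and 201 of the main calls were shared), and 195 and 175 when replicate 1 had to lie outside the group-adjusted range of the 16 others. They were 157 and 97 with a pseudocount at the 30th percentile, and 187 and 166 without the dimmest 40%. Rules that ask less gave more by construction: 778 and 685 at 1.5-fold, 1233 and 1473 at any fold, 555 and 556 against replicates 2 and 3 alone, 708 and 560 against replicates 4 and 5 alone, 605 and 689 in the VND7 line alone, and 550 and 426 in the empty-vector line alone. Leaving out 1 replicate number or 1 replicate 1 array gave 289 to 403 higher and 257 to 358 lower, the 358 without the empty-vector CHX array of replicate 1. The differences of all 87 genes named by the rule kept their sign under 15 alternatives. For most of these the sign was fixed in advance, since the rule took genes highest or lowest in replicate 1 in every group. Leaving out a line, other replicates or a replicate 1 array could not reverse it, so nothing is read from the signs there. Of 1305 values 107 moved beyond the spread over groups, 33 against each pair of other replicates. CYP71B21 was 1.76, AT5G37690 1.41, AT1G54020 1.19 and AT3G28600 -1.38 with the pseudocount. Of 735 list medians over all alternatives 73 counted as moved. Against replicates 2 and 3 alone 17 of 49 moved, and against replicates 4 and 5 alone 19 of 49. Many list medians thus depend on which other replicates they are set against. List medians near 0 changed sign, such as that of the P450 genes (-0.03 against replicates 2 and 3 alone), and the cause was not tested.

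For the DEX response in the VND7 line, 4 higher and 3 lower became 2 and 3 with the replicate block, 5 and 2 with quantile normalization and 6 and 6 without the variance trend. For the empty-vector line 1 and 4 became 6 and 4 with the replicate block, 2 and 4, and 4 and 6. With the pseudocount or without the dimmest 40% all were 0 without the block; with it (combinations chosen after seeing the data) they were 1 and 0 with the pseudocount and 0 and 0 without the dimmest 40% in the VND7 line, and 2 and 0, and 3 and 0, in the empty-vector line. Leaving out 1 of replicates 2 to 5 gave 0 to 1 higher and 0 to 2 lower in the VND7 line and 0 and 0 in the empty-vector line, where fewer arrays enter; with the replicate block it gave 0 higher and 0 to 1 lower, and 0 to 3 higher and 0 lower. The line difference stayed at 0 under each of these. Dim probe sets limit the tests without the block, since a change of a few signal units there is a large fold.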
